A study of Mus musculus with 6 samples.

Results

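Expression of 10 genes for inflammatory cytokines and chemokines was compared: *Il1a*, *Il1b*, *Il1rn*, *Il6*, *Osm*, *Tnf*, *Ccl3*, *Ccl4*, *Cxcl2* and *Tgfb1*, chosen by symbol from the 55367 genes of an expression table of leukemia stem cells (LSCs). LSCs are the cells of acute myeloid leukemia (AML) that can restart the disease. They were taken from bone marrow of mice whose AML was made by transplanting lineage-negative cells that carried the MLL-AF9 fusion and YFP on a retrovirus. Donors of *Piezo1 cKO* LSCs were *Mx1-cre; Piezo1 fl/fl* mice, and donors of WT LSCs were *Piezo1 fl/fl* littermates, 8 to 10 weeks old. Both kinds of donor had received pIpC (poly(I:C)) 3 times, so WT LSCs also carried floxed *Piezo1* alleles and came from pIpC-treated mice. *Mx1-cre* is switched on by interferon, which pIpC induces, and is active in blood cells of all lineages and in other tissues. PIEZO1 is an ion channel that opens under mechanical force. The recipients were irradiated C57BL/6 mice with their own remaining cells, and the round of transplantation that was sequenced is not given in the sources used here. The sort kept YFP+ Lin- Sca-1- c-Kit+ CD34+ CD16/32 hi cells.

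WT LSCs and *Piezo1 cKO* LSCs were sequenced in 3 libraries each. Nothing in the labels says that the libraries of a group came from separate mice or separate leukemias, so p-values measure the spread between these libraries, which may be technical. For the same reason, a difference between genotypes and a difference between leukemias cannot be told apart. Pairs of libraries within a group differed by more than counting noise: the mean squared difference over 10246 genes was 1.60 to 3.18 times that of Poisson sampling.

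The deposited values are on a log2 scale that pulls each gene towards its mean over the 6 libraries, so differences of genes with few reads are shrunken. The pull could be undone, which gave back reads: 15406253, 14745598 and 15483603 in the WT libraries, replicates 1 to 3, and 14112121, 15094248 and 14456741 in the *Piezo1 cKO* libraries in the same order. Where a gene averaged 1 read or more, 92.9% of its values came out whole to within 0.1. Values are given as recovered reads unless the deposited scale is named, and normalized reads are divided by each library's size factor. Reads carry no molecular identifiers, so intervals and bounds cover counting error only. Adjusted p-values are from limma over all genes tested, by Benjamini-Hochberg, and a DEG passed an adjusted p of 0.05 with a log2 fold change above 1 or below -1.

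*Piezo1* (chr8:122481698-122551329, GRCm38, minus strand) had 104, 92 and 113 reads in WT LSCs, against 35, 58 and 45 in *Piezo1 cKO* LSCs. The groups did not overlap, and *Piezo1 cKO* LSCs held 45.9% of the WT level (log2 fold change -0.29 ± 0.04 (SE) on the deposited scale, limma adjusted p = 5.8e-06). Reads on the whole gene do not separate the floxed exons from the rest.

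Inflammatory cytokines are small secreted proteins by which myeloid cells call in and activate other cells. IL-1, IL-6, oncostatin M and TNF act on receptors that feed the NF-kB and JAK-STAT pathways, and these pathways in turn raise transcription of cytokines, chemokines and their own inhibitors. Chemokines of the CC and CXC families draw monocytes, lymphocytes and neutrophils along a gradient, while TGF-beta restrains the cycling of hematopoietic stem cells and dampens immune responses.

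The chemokine genes *Ccl3* and *Ccl4* were higher in *Piezo1 cKO* LSCs, 3.35-fold and 6.35-fold. *Cxcl2* was also higher but rested on few reads. *Tgfb1*, *Il1rn* and *Tnf* were lower, at 41.4%, 32.1% and 48.2% of WT, and *Il6* fell from few reads to fewer. *Osm* was close to its WT level, and *Il1a* and *Il1b* were at or near 0 in every library. The members therefore did not move in 1 direction. Of the 10 members, 1 was listed at 0 and 8 passed the filter on low values. Of these 8, 3 rose and 5 fell at an adjusted p under 0.05 on the deposited scale, where 31.6% of all 16746 genes tested rose and 31.4% fell. The calls of *Osm* and *Il6*, both lower, were lost on this scale under several settings, single libraries left out among them. With the fold threshold, 2 members were DEGs, both higher, beside 0.257% of all genes higher and 0.561% lower. On recovered reads, 3 members were higher DEGs and 4 were lower DEGs, where 12.7% and 12.2% of 17352 genes were. Of these 7 calls, those of *Cxcl2*, *Tnf* and *Il6* were lost when single libraries were left out. The groups did not overlap for 6 of the 8 members, beside 66.6% of all genes tested. The median log2 fold change on the deposited scale was -0.07 over the 8 members and 0.00 over all genes tested. On recovered reads these medians were -0.61 and 0.00.

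**Figure D1:**
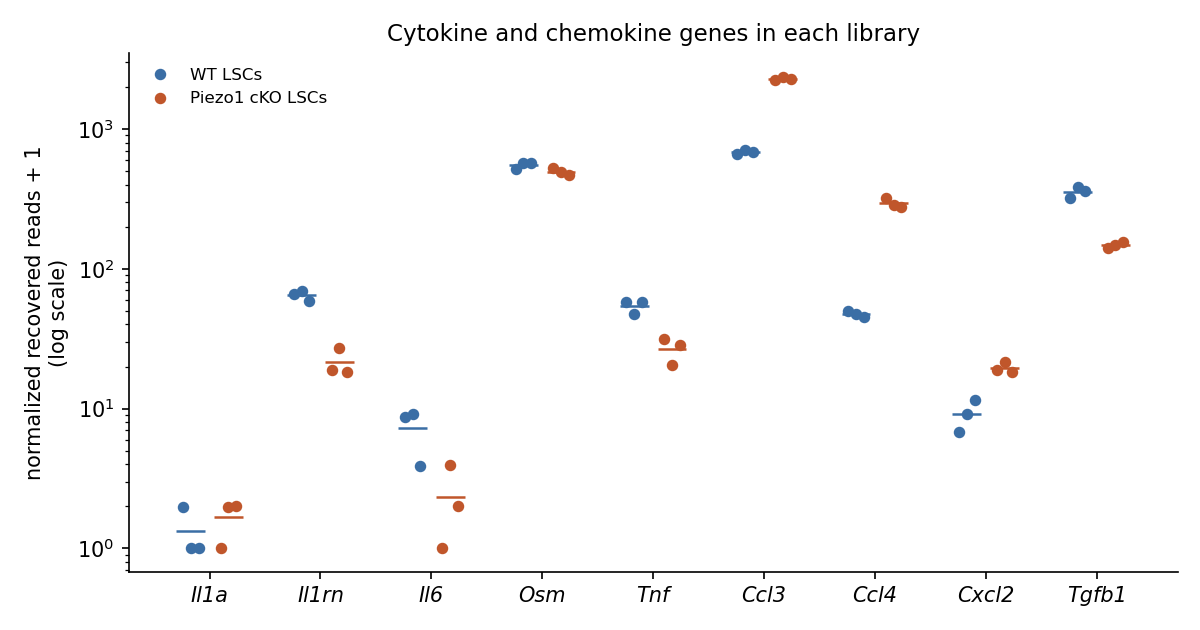
Normalized recovered reads plus 1 (log axis) of the 9 members with any read, in each of 3 WT and 3 *Piezo1 cKO* LSC libraries; points are libraries and lines are group means. *Ccl3*, *Ccl4* and *Cxcl2* lie higher in *Piezo1 cKO* LSCs, and *Il1rn*, *Tnf* and *Tgfb1* lie lower, without overlap.

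*Ccl3* (chr11:83647844-83649355, minus strand) encodes MIP-1 alpha, a chemokine for monocytes and lymphocytes that also restrains the growth of hematopoietic progenitors. It had 678, 706 and 717 reads in WT LSCs, against 2148, 2435 and 2236 reads in *Piezo1 cKO* LSCs. Every *Piezo1 cKO* library was above every WT library, and the groups lay far apart against their spread. Normalized reads were 687 ± 27.4 (SD, n = 3) in WT LSCs against 2298 ± 67.6 in *Piezo1 cKO* LSCs. The log2 fold change was 1.18 ± 0.03 (SE) on the deposited scale (limma adjusted p = 3.61e-16) and 1.74 ± 0.05 on recovered reads (limma-voom adjusted p = 1.16e-13).

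*Ccl4* (chr11:83662584-83664683, plus strand) encodes MIP-1 beta, the closest relative of MIP-1 alpha. It had 50, 46 and 46 reads in WT LSCs against 307, 293 and 273 in *Piezo1 cKO* LSCs. The groups did not overlap. Its log2 fold change was 2.65 ± 0.15 on recovered reads (limma-voom adjusted p = 5.5e-10). On the deposited scale it was 1.01 ± 0.04 (limma adjusted p = 1.16e-13), just past the fold threshold. Without *Piezo1 cKO* replicate 1 the deposited log2 fold change was 0.98 and *Ccl4* was no longer a DEG on that scale. *Ccl3* had 13.6, 15.3 and 15.6 reads for each *Ccl4* read in WT replicates 1 to 3 and 7.0, 8.31 and 8.19 in *Piezo1 cKO* replicates 1 to 3, so the fold of reads was larger for *Ccl4* than for *Ccl3*, while the deposited log2 fold change was larger for *Ccl3*. No 31-base word of the *Ccl3* or *Ccl4* transcripts occurs in transcripts of another gene.

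*Ccl3* and *Ccl4* lie 13229 bases apart, in a cluster of CC chemokine genes. The genes around them did not all move alike. *Ccl9* rose (from 667, 553 and 614 reads to 1023, 1035 and 1054, deposited log2 fold change 0.52, limma adjusted p = 8.49e-10). *Ccl6* rose by less, 0.11 on that scale (limma adjusted p = 0.02), a call that was lost with 1 library left out (limma adjusted p up to 0.109). *Ccl5*, the chemokine RANTES, had 8, 10 and 5 reads in WT LSCs but none in *Piezo1 cKO* LSCs, at least 2.49-fold lower against a floor of 3 reads per library. *Rpl9-ps1*, which lies 2223 bases from *Ccl3*, did not pass the test (7 reads in all WT and 13 in all *Piezo1 cKO* libraries). *Wfdc17*, the next gene annotated as protein coding beyond *Ccl4*, rose with a deposited log2 fold change of 1.17 (limma adjusted p = 3.05e-15), from 377, 398 and 361 reads to 1304, 1373 and 1283. These neighbors, apart from the members, were taken by position after values were seen.

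**Figure D2:**
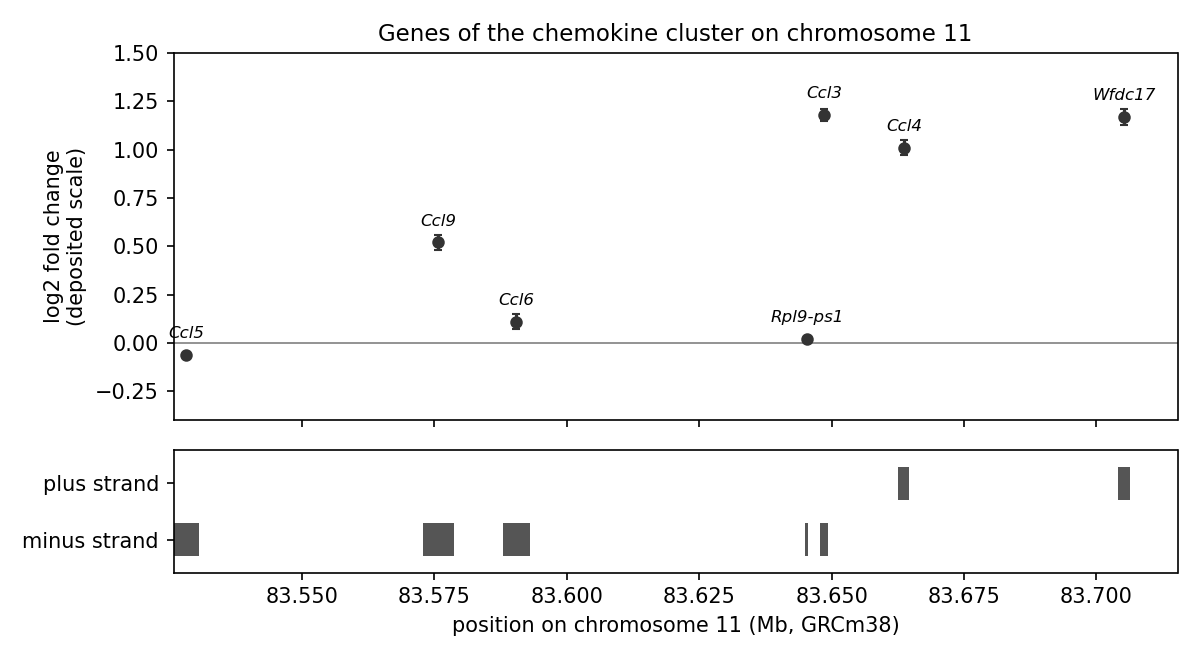
Log2 fold change (deposited scale, *Piezo1 cKO* minus WT, bars are SE) of the tested genes between *Ccl5* and *Wfdc17*, above their position and strand on chromosome 11 (GRCm38). *Ccl3*, *Ccl4* and *Wfdc17* lie at 1.18, 1.01 and 1.17, *Ccl9* at 0.52, and *Ccl5*, *Ccl6* and *Rpl9-ps1* near 0.

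*Cxcl2* (chr5:90903871-90905938, plus strand) encodes MIP-2, which draws neutrophils. It had 6, 8 and 11 reads in WT LSCs, against 17, 21 and 17 in *Piezo1 cKO* LSCs. The groups did not overlap. The ratio of summed reads, scaled by the summed size factors of each group, was 2.27 (95% exact interval 1.39 to 3.80). The log2 fold change was 0.08 ± 0.02 on the deposited scale (limma adjusted p = 0.00781) and 1.17 ± 0.34 on recovered reads (limma-voom adjusted p = 0.00664). Without WT replicate 1 the latter was 0.96 and *Cxcl2* was no longer a DEG on recovered reads. It shares 7.59% of its 31-base words with *Cxcl3*, which had 2, 0 and 0 reads in WT LSCs but none in *Piezo1 cKO* LSCs. The next gene upstream, *Cxcl1*, was listed at 0 in all 6 libraries.

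Over the 28 chemokine ligand genes listed, 10 were listed at 0 and 16 were tested. Of these, 7 rose and 6 fell, with a median deposited log2 fold change of 0.02 beside 0.00 for all genes. Apart from *Ccl3* and *Ccl4*, the list held no DEG on the deposited scale. With those 2 included, 5 genes of the list were higher and 6 were lower DEGs on recovered reads. Several of those that fell had no read left: *Cxcl10*, an interferon-induced chemokine for T cells, went from 63, 54 and 66 reads to no read at all, at least 19.7-fold lower. *Ppbp*, a platelet chemokine gene, went from 44, 57 and 54 reads to 0, at least 16.7-fold lower. *Pf4*, the platelet factor gene beside it, went from 95, 107 and 82 reads to 7, 10 and 9. *Cxcl10*, *Ppbp* and *Pf4* were chosen after their values were seen.

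The receptors of these chemokines are G protein coupled receptors. *Ccr1*, a receptor of MIP-1 alpha, rose 1.56-fold from 418, 434 and 455 reads to 656, 696 and 620 (deposited log2 fold change 0.38, limma adjusted p = 4.35e-08). *Ackr2*, a receptor that binds CC chemokines without signaling through G proteins, rose from 4, 2 and 2 reads to 15, 15 and 9. Its ratio of summed reads, scaled by the summed size factors of each group, was 5.03 (95% exact interval 2.32 to 12.5). *Cxcr2*, the receptor of MIP-2, had 27, 29 and 35 reads against 35, 35 and 41 and did not pass the test (limma adjusted p = 0.188). *Ccr3* and *Cxcr1* were listed at 0. *Ackr1*, another non-signaling receptor, was below the filter on deposited values, with 1, 4 and 5 reads in WT LSCs but none in *Piezo1 cKO* LSCs.

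IL-1 alpha and IL-1 beta activate the IL-1 receptor, and the receptor antagonist encoded by *Il1rn* occupies it without a signal. *Il1rn* (chr2:24336853-24351494, plus strand) had 67, 68 and 60 reads in WT LSCs, against 17, 27 and 17 in *Piezo1 cKO* LSCs. The groups did not overlap. The log2 fold change was -0.27 ± 0.03 on the deposited scale (limma adjusted p = 2.01e-06) and -1.63 ± 0.23 on recovered reads (limma-voom adjusted p = 1.84e-05). *Il1b* (chr2:129364570-129371139, minus strand) was listed at 0 in all 6 libraries, and *Il1a* (chr2:129299610-129309972, minus strand) had 1, 0 and 0 reads in WT LSCs, against 0, 1 and 1 in *Piezo1 cKO* LSCs. A floor of 3 reads stands for 0.194 to 0.213 CPM (reads scaled to the library total) in these libraries, so a difference in either agonist below that was not detectable at this depth. Antisense genes overlap both: *Gm14023* overlaps *Il1a* (16 reads in all WT and 16 in all *Piezo1 cKO* libraries) and *Il1bos* overlaps *Il1b* (28 reads and 0). The library protocol does not mark strand, so reads of a gene and of its antisense partner cannot be told apart where they overlap. Because *Il1b* was at 0, no ratio of antagonist to agonist could be formed.

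The IL-1 receptor genes moved apart as well. *Il1r1*, the signaling receptor chain, rose 1.99-fold, from 58, 44 and 41 reads to 96, 97 and 82 (deposited log2 fold change 0.25, limma adjusted p = 2.76e-05). *Il1rap*, the accessory chain it needs for a signal, fell to 54.4% of WT, from 678, 609 and 641 reads to 289, 393 and 336 (-0.51, limma adjusted p = 7.86e-09). The decoy receptor *Il1r2* had 23, 27 and 22 reads against 31, 19 and 24 and did not pass the test (limma adjusted p = 0.805). Downstream of the receptor, the kinase gene *Irak2* fell from 625, 627 and 658 reads to 304, 303 and 297 (-0.59, limma adjusted p = 5.53e-11), and *Irak4*, the kinase first drawn to the receptor complex, rose from 601, 547 and 736 to 840, 889 and 810 (0.30, limma adjusted p = 1.31e-05). Of the 26 genes of the IL-1 family and its signaling, 3 were listed at 0 and 21 were tested; 7 rose and 9 fell, with a median of -0.04 and no DEG on the deposited scale. On recovered reads none of them was a higher DEG and 5 were lower DEGs, *Il1rn* and *Irak2* among them.

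IL-6 and oncostatin M signal through the shared chain gp130, encoded by *Il6st*. *Il6* (chr5:30013114-30019981, plus strand) had 8, 8 and 3 reads in WT LSCs, against 0, 3 and 1 in *Piezo1 cKO* LSCs, and the groups overlapped. The ratio of summed reads, scaled by the summed size factors of each group, was 0.217 (95% exact interval 0.0538 to 0.654). Its log2 fold change was -0.04 ± 0.01 on the deposited scale (limma adjusted p = 0.0175) and -2.13 ± 0.70 on recovered reads (limma-voom adjusted p = 0.0150). Its call rested on single libraries: limma adjusted p rose to 0.0735 without WT replicate 1, 0.0815 without WT replicate 2 and 0.0651 without *Piezo1 cKO* replicate 1 on the deposited scale. On recovered reads the log2 fold change went from -1.43 without *Piezo1 cKO* replicate 1 (limma-voom adjusted p = 0.0948) to -2.78 without *Piezo1 cKO* replicate 2.

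*Osm* (chr11:4236420-4241026, plus strand) had 531, 570 and 589 reads in WT LSCs, against 503, 503 and 462 in *Piezo1 cKO* LSCs. Normalized reads overlapped between groups, 552 ± 32.5 (SD, n = 3) against 495 ± 28.0. The log2 fold change was -0.09 ± 0.04 on the deposited scale (limma adjusted p = 0.0403) and -0.16 ± 0.07 on recovered reads (limma-voom adjusted p = 0.0462). This call was lost under several settings, among them library totals in place of size factors (-0.14, limma-voom adjusted p = 0.0761) and centring on the library median (-0.07, limma adjusted p = 0.117). It was also lost without WT replicate 2 (limma adjusted p = 0.153), WT replicate 3 (0.134), *Piezo1 cKO* replicate 2 (0.102) or *Piezo1 cKO* replicate 3 (0.163). *Lif*, the related cytokine gene 16531 bases from *Osm*, had no read in WT LSCs, against 6, 6 and 1 in *Piezo1 cKO* LSCs, at least 1.49-fold higher against 3 reads per library, and was taken by position after values were seen.

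Among the genes that carry gp130 signals, a receptor chain and a feedback inhibitor were the DEGs on the deposited scale. *Lifr*, the LIF receptor chain that pairs with gp130, rose 4.75-fold, from 188, 170 and 161 reads to 853, 789 and 742 (deposited log2 fold change 1.27 ± 0.04, limma adjusted p = 1.92e-14). *Socs3*, an inhibitor that binds gp130 and is itself induced by STAT3, fell to 1.79% of WT, from 505, 470 and 587 reads to 10, 9 and 8 (-2.00, limma adjusted p = 1.84e-17). *Il6st* fell to 65.2% of WT (755, 722 and 707 reads to 444, 464 and 472, limma adjusted p = 3.51e-08). *Il6ra*, the IL-6 binding chain, had 2613, 2669 and 2734 reads against 2519, 2713 and 2595 and did not pass the test (limma adjusted p = 0.816). *Osmr*, the oncostatin M receptor chain, had 1, 1 and 0 reads in WT LSCs but none in *Piezo1 cKO* LSCs. The cytokine gene *Ctf1*, chosen after its values were seen, went from 22, 17 and 15 reads to 0, at least 5.81-fold lower. Of 17 tested genes among the 18 listed, 6 rose and 8 fell, with a median of -0.04, and on recovered reads 4 were higher and 4 were lower DEGs.

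*Tnf* (chr17:35199381-35202007, minus strand) encodes TNF, a trimeric cytokine that is made at the membrane and shed. It had 59, 46 and 59 reads in WT LSCs, against 29, 20 and 27 in *Piezo1 cKO* LSCs, without overlap. Its log2 fold change was -0.17 ± 0.03 on the deposited scale (limma adjusted p = 0.000308) and -1.07 ± 0.22 on recovered reads (limma-voom adjusted p = 0.000698). The latter was -0.88 without *Piezo1 cKO* replicate 2, short of the fold threshold. Its neighbors on either side encode lymphotoxins, which belong to the same family. *Ltb*, 3061 bases away, fell from 265, 295 and 298 reads to 47, 59 and 51 (-0.92, limma adjusted p = 5.59e-13). *Lta*, 1158 bases away, had 17, 18 and 15 reads in WT LSCs but none in *Piezo1 cKO* LSCs, at least 5.39-fold lower. The genes beyond them rose: *Lst1* by 0.36 (limma adjusted p = 2.31e-06) and *Nfkbil1* by 0.31 (limma adjusted p = 9.61e-06) on the deposited scale. *Lta*, *Lst1* and *Nfkbil1* were taken by position after values were seen.

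The TNF receptor genes did not pass the test. *Tnfrsf1a* had 715, 652 and 696 reads against 670, 741 and 667 (limma adjusted p = 0.378), and *Tnfrsf1b* had 225, 268 and 250 against 184, 217 and 222 (limma adjusted p = 0.0569). *Traf1*, an adaptor gene induced by NF-kB, fell from 87, 103 and 108 reads to 16, 21 and 12 (-0.49, limma adjusted p = 2.53e-09). *Tnfaip3*, which encodes the inhibitor A20, fell from 186, 207 and 215 reads to 69, 104 and 86 (-0.45, limma adjusted p = 6.6e-08). All 18 genes of the TNF list were tested: 4 rose and 9 fell, with a median of -0.09 and no DEG on the deposited scale, beside 5 lower DEGs and no higher one on recovered reads.

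NF-kB is the transcription factor family that many of these receptors activate. Of its 18 subunit and regulator genes, all tested, 4 rose and 11 fell, with a median of -0.15 on the deposited scale beside 0.00 for all genes. *Bcl3*, an atypical member of the inhibitor family that acts in the nucleus, was the only DEG of the list on the deposited scale: 331, 382 and 374 reads in WT LSCs, against 17, 28 and 26 in *Piezo1 cKO* LSCs (-1.41 ± 0.04, limma adjusted p = 3.32e-15). *Nfkb2* (-0.85), *Nfkbia* (-0.81) and *Relb* (-0.78) fell by less, with limma adjusted p-values of 1.53e-12, 8.84e-14 and 4.44e-12. On recovered reads these 3 genes, *Bcl3* and *Tnfaip3* were the 5 DEGs, all lower. *Nfkb1* rose by 0.15 (limma adjusted p = 0.000151), and *Rela* did not pass the test (-0.06, limma adjusted p = 0.0785). *Nfkb1*, *Nfkb2*, *Nfkbia*, *Rela* and *Relb* were chosen after their values were seen.

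*Tgfb1* (chr7:25687002-25705077, plus strand) encodes TGF-beta 1, which is secreted in a latent form. It had 329, 382 and 376 reads in WT LSCs, against 133, 152 and 152 in *Piezo1 cKO* LSCs, without overlap. Normalized reads were 356 ± 33.6 (SD, n = 3) against 147 ± 7.90. The log2 fold change was -0.61 ± 0.04 on the deposited scale (limma adjusted p = 5.36e-10) and -1.26 ± 0.10 on recovered reads (limma-voom adjusted p = 4.48e-08). The adjacent *B9d2*, 444 bases upstream, did not pass the test (0.09, limma adjusted p = 0.063). *Tgfb1* shares 2.34% of its 31-base words with transcripts of other genes.

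Its receptor *Tgfbr2* rose 1.86-fold, from 88, 94 and 84 reads to 149, 165 and 166 (0.32, limma adjusted p = 9.93e-07). *Tgfbr1* had 355, 314 and 366 reads against 376, 342 and 350 (limma adjusted p = 0.290), and *Tgfbr3* had 4, 11 and 4 against 3, 6 and 7 (limma adjusted p = 0.760). *Skil*, a repressor of SMAD proteins that TGF-beta induces, fell from 2302, 1927 and 2111 reads to 1193, 1156 and 1186 (-0.55, limma adjusted p = 3.66e-10). *Eng*, a co-receptor, rose from 149, 170 and 170 reads to 262, 305 and 264 (0.37, limma adjusted p = 2.46e-07). Of 24 tested genes among the 28 listed, 10 rose and 7 fell, with a median of 0.03 and no DEG on the deposited scale, while on recovered reads 3 were higher and 5 were lower DEGs, *Tgfb1* being 1 of the lower ones.

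Among 10 factors that stabilize or destroy cytokine mRNAs, all tested, 5 rose and 3 fell, with a median of 0.06. *Zfp36l1* (-0.31, limma adjusted p = 6.54e-06) and the RNase gene *Zc3h12a* (-0.29, limma adjusted p = 3.68e-06) fell, and *Khsrp* rose (0.27, limma adjusted p = 2.34e-05). On recovered reads none of the list was a higher DEG and 1 was a lower DEG, *Zc3h12a* (-1.01, limma-voom adjusted p = 3.01e-05). With 1 library left out its log2 fold change reached -0.94, short of the fold threshold. Of 26 other cytokine genes of myeloid cells, 9 were listed at 0, among them *Il10*, *Il12b* and *Csf2*. Of 16 tested, 5 rose and 5 fell, with a median of 0.03 and, on recovered reads, 3 higher and 4 lower DEGs. *Spp1*, which encodes osteopontin, fell from 340, 329 and 302 reads to 76, 81 and 72 (-0.86, limma adjusted p = 1.35e-12), and *Vegfa* fell from 76, 71 and 79 to 16, 28 and 21 (-0.32, limma adjusted p = 2.75e-07). *Il12a* rose from 627, 686 and 685 reads to 1237, 1304 and 1323 (0.65, limma adjusted p = 1.47e-11), without *Il12b*, the gene of the chain it pairs with in IL-12. *Il10*, *Il12b* and *Csf2* were chosen after values were seen. Over all 177 genes of the 9 signaling lists, 142 were tested, 50 rose and 57 fell.

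**Figure D3:**
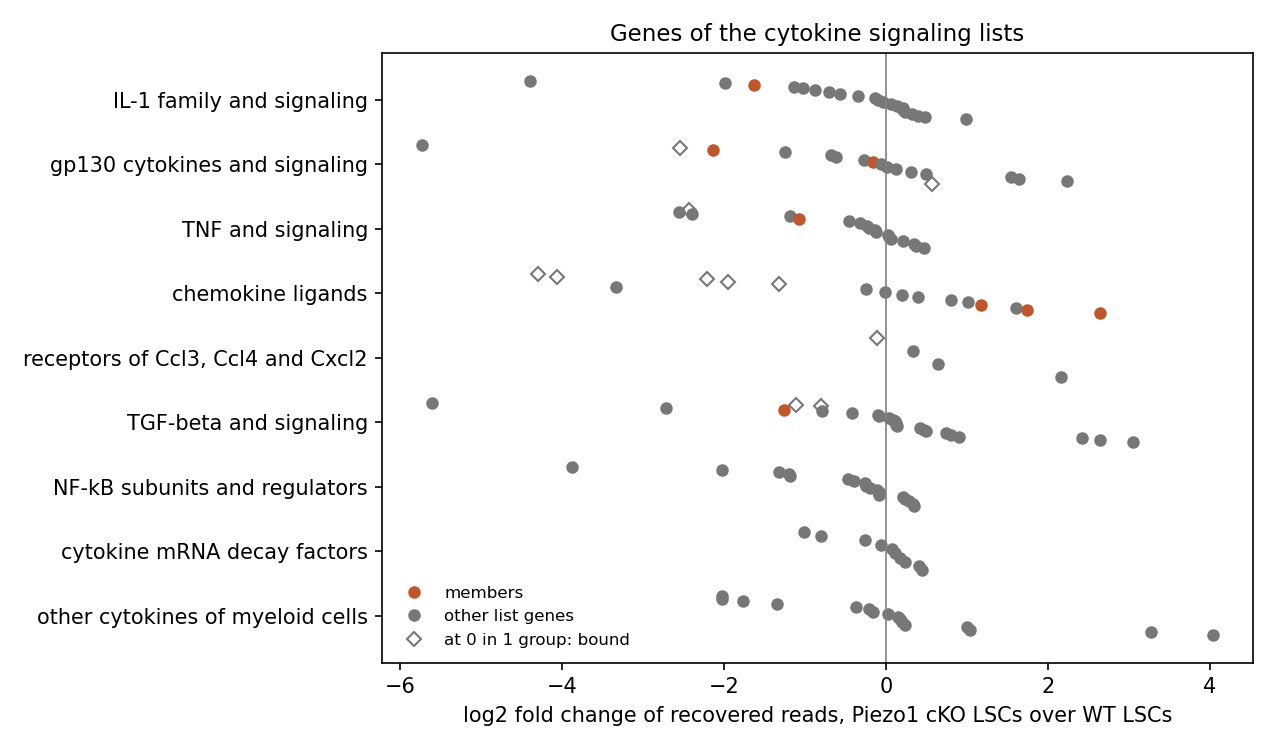
Log2 fold change of recovered reads (*Piezo1 cKO* over WT LSCs) for each tested gene of the 9 signaling lists, with members in orange; open diamonds mark genes at 0 in 1 group, drawn at the bound set by 3 reads per library. *Ccl3* and *Ccl4* lie at 1.74 and 2.65, and *Socs3* lies at -5.73.

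Levels can be compared between genes as RPKM, the reads per kilobase of exon scaled by the library total. In WT LSCs the order was *Ccl3* (60.1 ± 2.54, SD, n = 3), *Osm* (16.3 ± 0.996), then *Tgfb1* (4.73 ± 0.457) and *Ccl4* (4.72 ± 0.208), which did not differ beyond their spread. *Tnf* (2.19 ± 0.247), *Il1rn* (0.773 ± 0.0674), *Cxcl2* (0.265 ± 0.0776) and *Il6* (0.172 ± 0.0803) followed, the last pair within their spread. In *Piezo1 cKO* LSCs *Ccl4* (30.3 ± 2.32) stood above *Osm* (14.8 ± 0.820), after *Ccl3* (204 ± 6.15). *Cxcl2* (0.608 ± 0.0565) stood above *Il1rn* (0.251 ± 0.0625), and *Tgfb1* was at 1.98 ± 0.109 and *Tnf* at 1.07 ± 0.231, with *Il6* lowest of these at 0.0368 ± 0.0416. *Ccl3* made up 38.5% to 39.2% of all member reads in WT libraries and 68.1% to 70.5% in *Piezo1 cKO* libraries.

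Promoter sequences were taken from RefSeq (GRCm38.p6) for 8 of the 10 members, all but *Osm* and *Ccl4*. They are shown for the 5 of these whose groups did not overlap, *Ccl3* (chr11:83649379-83649528, minus strand), *Il1rn* (chr2:24336710-24336852, plus strand), *Cxcl2* (chr5:90903749-90903870, plus strand), *Tgfb1* (chr7:25686852-25687001, plus strand) and *Tnf* (chr17:35202008-35202157, minus strand). Each run is written 5′ to 3′ and ends just before the RefSeq or GENCODE start of the gene, whichever comes first, and capitals mark a match to a searched motif.
*Ccl3*: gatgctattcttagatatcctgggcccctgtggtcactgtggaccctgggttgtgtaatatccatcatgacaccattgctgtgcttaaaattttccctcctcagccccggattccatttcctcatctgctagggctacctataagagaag
*Il1rn*: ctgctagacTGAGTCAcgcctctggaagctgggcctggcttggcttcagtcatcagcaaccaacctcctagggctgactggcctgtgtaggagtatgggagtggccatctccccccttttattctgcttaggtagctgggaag
*Cxcl2*: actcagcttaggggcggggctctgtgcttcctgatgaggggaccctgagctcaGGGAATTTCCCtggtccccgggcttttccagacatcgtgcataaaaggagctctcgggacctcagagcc
*Tgfb1*: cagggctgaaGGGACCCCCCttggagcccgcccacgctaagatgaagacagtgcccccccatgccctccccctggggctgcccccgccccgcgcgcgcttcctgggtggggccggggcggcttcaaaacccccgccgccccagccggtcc
*Tnf*: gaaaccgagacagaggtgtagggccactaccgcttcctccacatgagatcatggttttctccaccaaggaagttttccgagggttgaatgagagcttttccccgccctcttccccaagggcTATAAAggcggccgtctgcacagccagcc
The motifs were the TATA box (TATAAA), AP-1 (TGANTCA), C/EBP (TTGCNNAA) and the NF-kB consensus, on both strands of the 250 bases before each start. The 8 members had 10 promoters in this search, and the shares given are of promoters, not of genes. The NF-kB consensus was found for *Cxcl2*, *Il6* and *Tgfb1*, of which the first rose and the others fell, and 7.25% of all 32851 promoters hold it. The TATA box was found for *Il1a*, *Il1b* and *Tnf* (12.4% of all promoters), AP-1 for *Il1a*, *Il1rn* and *Il6* (6.75%) and C/EBP for *Il6* (9.56%). The *Cxcl2* capitals are a pair of overlapping NF-kB matches. *Ccl3* held none of these letters in this window. A match of letters is a description and not a site.

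The sort markers *Kit* (2466 to 2692 reads in WT, 3360 to 3423 in *Piezo1 cKO* libraries), *Cd34* and *Fcgr3* were present in all libraries. The excluded marker *Ly6a*, the gene of Sca-1, had 1, 1 and 0 reads in WT LSCs, against 10, 17 and 7 in *Piezo1 cKO* LSCs. Summed over the 4 sort genes, levels were 1000 to 1030 CPM in WT libraries and 1080 to 1130 in *Piezo1 cKO* libraries, with *Fcgr3* the most abundant in WT and *Cd34* in *Piezo1 cKO* libraries. Behind these sums 2 genes rose, *Cd34* 1.56-fold and *Kit* 1.36-fold, and *Fcgr2b* fell to 48.1% of WT (limma adjusted p = 1.29e-13). The 5 genes of granulocyte-monocyte progenitors all fell, from 35500, 38500 and 37600 CPM to 18600, 20200 and 19900, with *Mpo* the most abundant.

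Markers of several other cell types moved with the groups, and some of these cells are known sources of *Ccl3* and *Ccl4*. The sort for YFP+ Lin- c-Kit+ cells is meant to leave out lineage-positive cells and the recipients' own cells, and marker reads do not show which cells made them. Of 10 mast cell and basophil genes, 9 were tested, 8 rose and none fell. Their sum was 335, 348 and 353 CPM in WT LSCs, against 1080, 1090 and 1080 in *Piezo1 cKO* LSCs, with *Prss34* the most abundant in WT and *Cpa3* in *Piezo1 cKO* libraries. *Cpa3* rose 8.85-fold, from 587, 528 and 617 reads to 4990, 4990 and 4846. *Cma1* went from 0 reads to 23, 20 and 17, and *Tpsab1* was at or near 0 in both groups. Of 9 dendritic cell genes, 8 were tested, 7 rose and 1 fell. The one that fell was *Zbtb46*, a transcription factor gene of conventional dendritic cells, from 183, 176 and 195 reads to 66, 88 and 68. Summed levels of the list went from 48.2, 55.0 and 53.8 to 450, 469 and 460 CPM, led by *Bst2* in WT libraries and by the MHC class II gene *H2-Ab1* in *Piezo1 cKO* libraries. *H2-Ab1* rose from 119, 150 and 144 reads to 3052, 3579 and 3303.

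Of 5 NK cell genes, 4 were tested, 3 rose and 1 fell. *Nkg7*, 98.9% of their sum, fell, and the sum went from 276, 280 and 268 to 173, 170 and 173 CPM. *Gzmb* went from 0 reads to 17, 25 and 30 and *Klrb1c* from 0 to 32, 38 and 52, while the defining marker *Ncr1* had 0, 2 and 0 reads in *Piezo1 cKO* LSCs and none in WT LSCs. Of 11 macrophage genes, 8 were tested, 4 rose and none fell. Their sum was 401, 417 and 396 against 462, 474 and 476 CPM, led by *Cd68*. *C1qa* was listed at 0, *Marco* and *Timd4* had at most 3 reads in each library, and *C1qc* went from 0 reads to 21, 29 and 15. Of 7 T cell genes, 3 were tested, 2 rose and 1 fell. *Lck* led a sum of 4.13 to 4.75 in WT and 5.23 to 7.95 CPM in *Piezo1 cKO* libraries, and *Cd3e*, *Cd3g*, *Cd4* and *Cd8a* had at most 3 reads in each library.

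Of 7 monocyte genes, all tested, 3 rose and 3 fell. *F13a1* led their sum, 2380, 2350 and 2380 CPM against 1620, 1560 and 1550, and *Cd14*, the co-receptor for bacterial lipopolysaccharide, fell from 6118, 6083 and 6703 reads to 405, 503 and 410. *Fn1*, the fibronectin gene, moved the other way, from 24, 24 and 27 reads to 286, 283 and 275, and the chemokine receptor gene *Ccr2* rose 2.25-fold. Of 10 neutrophil genes, 8 were tested, 1 rose and 6 fell. Their sum was 170, 170 and 169 against 64.8, 61.9 and 64.1 CPM, led by *Ngp* in WT libraries and by the collagenase gene *Mmp8* in *Piezo1 cKO* libraries. *Mmp8* rose from 39, 42 and 49 reads to 623, 639 and 616, and *Ly6g* and *Retnlg* were at or near 0. Of 6 B cell genes, 3 were tested and 3 rose, led by *Ighm*, with sums of 816 to 844 against 1520 to 1540 CPM. *Klf1* led 6 erythroid genes (6.36 to 7.19 against 2.14 to 2.98 CPM), *Itga2b* 5 megakaryocyte genes (17.5 to 21.4, with the *Piezo1 cKO* libraries within that range) and *Pecam1* 5 stroma and endothelium genes (193 to 196 against 232 to 248). *Pecam1* made up 99.9% of that last sum, and *Col1a1*, *Col1a2*, *Lepr* and *Cdh5* had at most 3 reads in each library. Of the erythroid genes 4 were tested, 0 rose and 1 fell. Of the megakaryocyte genes 4 were tested, 2 rose and 2 fell. Behind the megakaryocyte sum *Itga2b* rose 1.99-fold, while *Pf4* fell to 9.4% of WT and *Ppbp* from 44, 57 and 54 reads to 0. Of the stroma and endothelium genes 1 was tested and rose. The part of other cells in the changes of *Ccl3*, *Ccl4* and the other members was not tested, and in bulk RNA fewer cells of a type and less RNA per cell cannot be told apart.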

How the data were processed

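The 6 LSC libraries, 3 per group, followed a Smart-seq2 based protocol that does not mark strand. Per the labels, the authors used fastp 0.20.1 for trimming, HISAT2 2.2.1 for mapping to GRCm38, featureCounts 2.0.1 for gene counts and DESeq2 1.28.1 for normalization. The deposited values are on a log2 scale with the form of a regularized log, a transform the sources do not name. Of 55367 genes, 28965 are listed at 0 in all libraries.

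Counts and a count model had been foreseen as a possibility. Since the values were log2, genes with a mean of at least 1 (16746) entered limma 3.58.1 under R 4.3.3, with lmFit and eBayes with a trend, with no covariates. The transform was undone by a search with 18 starts, 4 of them ending at the best solution. A shrinkage parameter 10% away from its fitted value left 22.2% of values whole within 0.1. Remade values lay within 0.01 of the deposited ones for 99.9% of values. Genes with at least 10 recovered reads in total (17352) were fitted with limma-voom. The recovery of reads and the fits were tested on simulated data. Depth ran from 14112121 to 15483603 recovered reads, and a fold against a group with no read was computed against 3 reads per library. An exact two-sided permutation test with 3 libraries per group cannot go below 0.1.

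The members and the lists of signaling genes and cell type markers were chosen with earlier results of these data known. Named genes are the members, *Piezo1*, in each signaling list the DEGs on the deposited scale or otherwise the 3 genes with the largest change at an adjusted p under 0.05, receptors of members, and the most abundant gene of each marker list, over all libraries. Some listed genes are not reported here, and 1 of them was also taken out of its signaling list and the counts. Others are named as chosen after their values were seen or taken by position. Marker genes given beside a list are those at 0 in a group or of known defining use, and *Cd14*, *Kit*, *Cd34*, *C1qc*, *Fcgr2b*, *Cpa3*, *Bst2*, *Zbtb46*, *Fn1*, *Ccr2* and *Mmp8* were chosen after their values were seen. GENCODE release M21 (GRCm38) gave gene positions and exon lengths. Alternatives were no filter, a mean of at least 50 recovered reads, centring on library medians, a replicate block, each library left out, no fold threshold, recovered reads, and recovered reads on library totals. Recovered reads with a block or with a library left out were added after seeing the data. Other steps ran in Python 3.11.15 with numpy 2.4.6, scipy 1.17.1, pandas 2.3.3 and matplotlib 3.10.9.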

Additional observations from a re-analysis of the deposited data

How the results depend on the processing

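On the deposited scale 137 genes, 2 members and 5 signaling genes were DEGs. On recovered reads these counts were 4322, 7 and 51, on library totals 4333, 7 and 52, and with recovered reads and a replicate block 4364, 7 and 49. With no fold threshold they were 10556, 8 and 107. Fits of recovered reads differ from the deposited-scale fit in the undone shrinkage, in the model and in the filter, and the parts of these in the larger counts were not separated. A dropped threshold counts smaller changes. Leaving out 1 library gave 134 to 144 genes, 1 to 2 members and 4 to 5 signaling genes on the deposited scale. On recovered reads it gave 4127, 4147 and 4061 genes without WT replicates 1 to 3 and 4105, 4139 and 4140 without *Piezo1 cKO* replicates 1 to 3. The members were then 5, 6 and 7, and 6, 6 and 6, and the signaling genes 48, 50 and 47, and 49, 50 and 47. *Ccl4* was the member lost without *Piezo1 cKO* replicate 1 on the deposited scale. On recovered reads the members lost were *Il6* without WT replicate 1, WT replicate 2, *Piezo1 cKO* replicate 1 or *Piezo1 cKO* replicate 3, *Cxcl2* without WT replicate 1 (log2 fold change 0.96) and *Tnf* without *Piezo1 cKO* replicate 2 (-0.88).

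The deposited-scale fit with the replicate number as a block gave 137 genes, 2 members and 5 signaling genes. Deviations of libraries with equal numbers correlated at 0.195, 0.161 and 0.0696, so the numbers were not taken to pair the samples. Over 148 alternative fits of the 8 tested members, all 148 kept the direction and 20 lost an adjusted p under 0.05, whatever the fold, 11 of them for *Osm* and the others for *Il6*. Besides fits with a library left out, *Il6* lost this with no filter (-0.04, limma adjusted p = 0.0590) and with centring (-0.02, limma adjusted p = 0.327). A ratio of *Il1rn* to *Il1b* could not be computed, since *Il1b* was listed at 0. Depth limits *Il1a*, *Il6* and *Cxcl2*, which had at most 21 reads in any library.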
